A study of Trichoderma reesei with 6 samples.

Results

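The genes described here encode predicted glycosylphosphatidylinositol (GPI) anchored proteins of the cellulase-producing fungus Trichoderma reesei. The list holds 86 genes predicted from proteins with a signal peptide, and all 86 were found among the 9113 genes of the expression table. Of these, 4 genes were left out by locus tag, no listed gene carried a chi18 (chitinase) symbol, and the other 82 are described. The deposited table lists 80 of them by locus tag and 2 by symbol (axe2 and cel5b). In the list of predicted genes, 10 of the 82 have an entry for the closest protein of the yeast Saccharomyces cerevisiae, 1 has the words "not found", and 71 have no entry. The prediction is from sequence alone, and the libraries measure mRNA, so neither the anchor nor the amount of protein was measured.

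The libraries compare strain Δgul1 (3 cultures) with the reference strain QPP (3 cultures). Both strains descend from the uridine-requiring strain QP4, which lacks pyr4, and both carry the Aspergillus niger pyrG marker. In Δgul1 this marker replaces most of gul1, a gene for a putative mRNA-binding protein, while in QPP it sits at a random place in the genome and gul1 is intact. Mycelia were precultured for 36 hr in minimal medium with 2% glucose and then grown for 48 hr at 30 °C with 1% cellulose before poly(A) RNA was sequenced. Δgul1 is a single transformant, so its 3 cultures repeat the growth of 1 clone. For QPP the number of transformants is not given in the sources used here.

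A GPI anchor is a glycolipid that is attached to the carboxyl end of a protein in the endoplasmic reticulum and holds the protein in the outer face of the plasma membrane. In fungi, part of these proteins are cut from the anchor and bound to the glucan of the cell wall. Known fungal GPI proteins include glucan-remodelling enzymes, heavily mannosylated structural proteins, adhesins and hydrolases. In yeast, Ssd1, the protein related to GUL1, binds mRNAs of several cell wall proteins.

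The deposited values are FPKM (fragments scaled by the length of the gene and the total of the library), computed from 17654286 to 21659230 fragments per library. They were divided by a size factor for each library (0.931 to 1.07), which gives the scaled FPKM used below unless deposited FPKM are named. On the deposited scale the log2 fold change had a median of 0.14 over all genes, and after scaling it was 0.01, so each change below is relative to the middle of the transcriptome. The gul1 transcript (TRIREDRAFT_77084) was at 0.934, 0.550 and 0.697 scaled FPKM in the Δgul1 libraries and at 93.3, 85.4 and 84.4 in the QPP libraries, in accordance with the labels. The cellulase transcripts cel7a, cel7b and cel5a, which mark mycelium induced by cellulose, were present in every library, at 9410, 563 and 2816 mean scaled FPKM in Δgul1 and 29411, 2728 and 7361 in QPP.

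Across the 82 genes, most transcripts differed by less than 2-fold between the strains, and the few large differences were in both directions. The log2 fold change (Δgul1 over QPP, of scaled FPKM plus 1) had a median of 0.01 and quartiles of -0.40 and 0.24, against a median of 0.01 and quartiles of -0.16 and 0.17 for all 9006 genes tested. It was above 0 for 42 genes and below 0 for 40 genes, and 51 were above 0 on the deposited scale. Among genes with a mean of at least 1 scaled FPKM, the median size of the log2 fold change was 0.35 for 74 of the 82 genes, 0.25 for the 64 of them with no yeast entry and 0.18 for 8150 genes of the whole table. The distance from the estimate to either end of its 95% interval had a median of 0.20 for the 74 genes and 0.21 for the 8150 genes. The scaled FPKM of all 82 genes summed to 18587, 18189 and 18164 in the Δgul1 libraries and to 17976, 17829 and 18029 in the QPP libraries.

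A gene was called where the difference was over 2-fold with an unadjusted p under 0.05 by limma. By this rule 3 of the 82 genes (3.66%) were higher in Δgul1, against 1.87% of all genes tested, and 6 (7.32%) were lower, against 2.09%. All 9 are among the 11 genes for which the study searched for a yeast relative. That search was made only for genes called from these same libraries, so the division into genes with and without an entry is not independent of the difference between the strains. With Benjamini-Hochberg adjusted p-values under 0.05 and no fold threshold, 18 genes (22.0%) were higher, against 14.5% of all genes, and 26 (31.7%) were lower, against 15.0%. On the deposited scale the called genes were 4 higher and 3 lower, and those with an adjusted p under 0.05 were 26 higher and 21 lower.

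**Figure D1:**
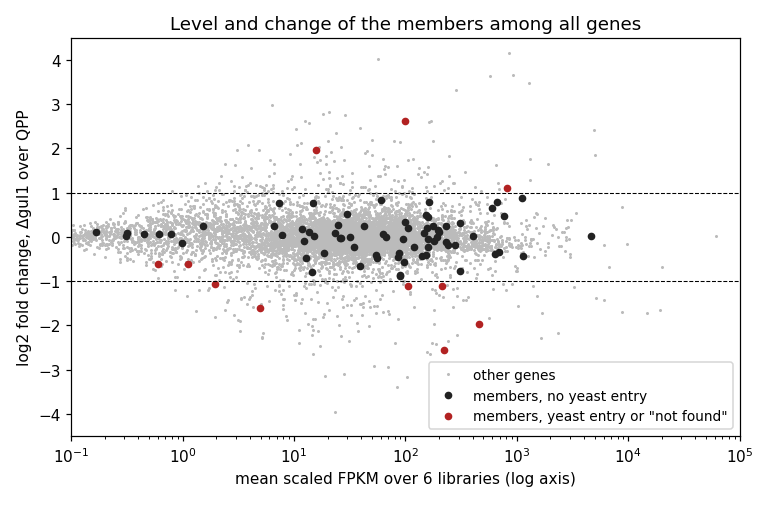
Mean scaled FPKM over 6 libraries (horizontal log axis) and log2 fold change of Δgul1 over QPP (vertical axis) of the 71 genes with no yeast entry (black), the 11 genes with an entry or the words "not found" (red) and all other genes (grey), with dashed lines at a 2-fold difference. The black points lie between the dashed lines at every level, and the red points range from -2.57 to 2.61.

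**Figure D2:**
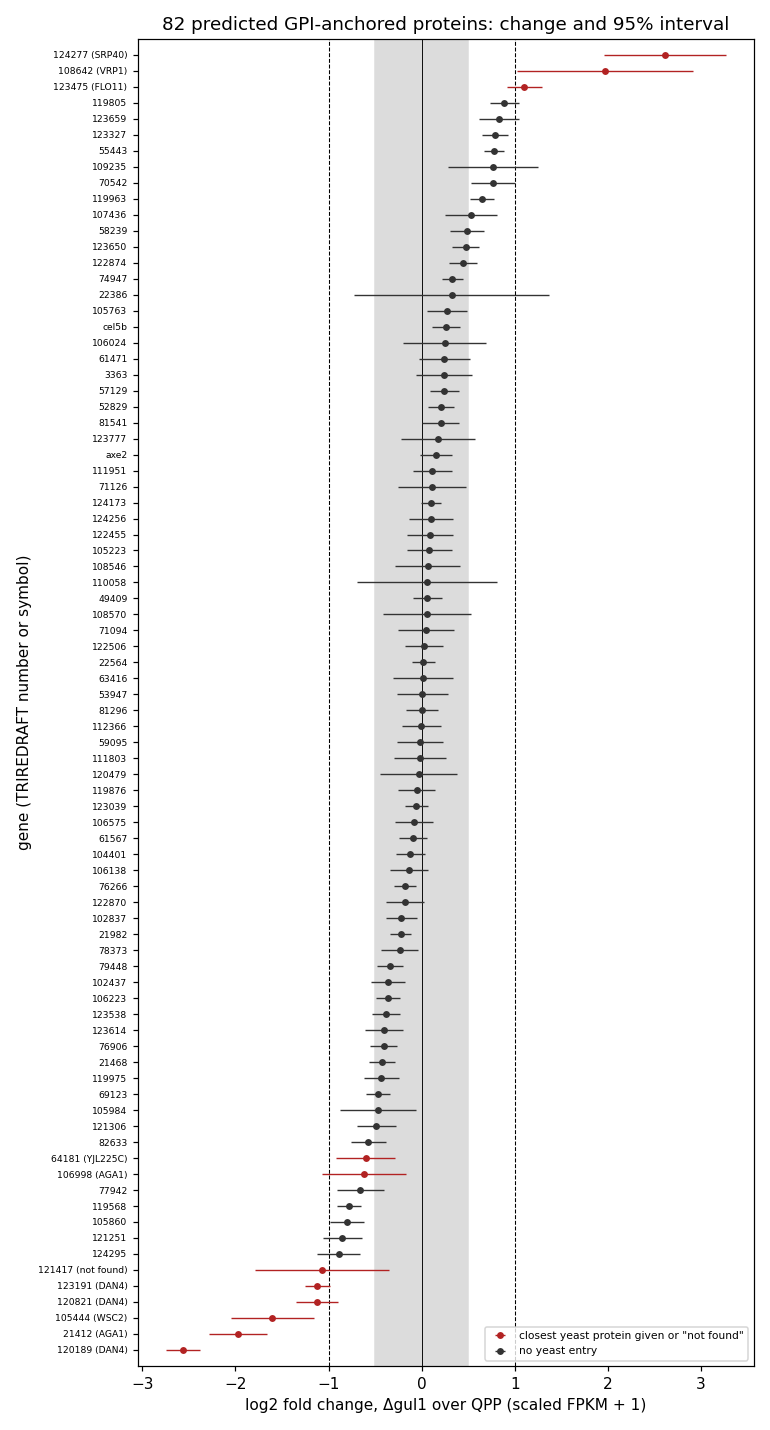
Log2 fold change with its 95% limma interval for each of the 82 genes, ordered from highest to lowest, with the band from -0.5 to 0.5 shaded and dashed lines at a 2-fold difference. Red rows are the 11 genes with a yeast entry or "not found", and 33 of the black rows with a mean of at least 1 scaled FPKM lie wholly inside the band.

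The predicted GPI proteins were well represented in the transcriptome. Their mean level by deposited FPKM had a median of 87.9, against 31.5 for all genes tested. By mean scaled FPKM, 36 genes were at 100 or more, 31 between 10 and 100, 7 between 1 and 10, and 8 below 1. The most abundant was TRIREDRAFT_53947, which alone made up 24.4 to 26.6% of the summed FPKM of the 82 genes in each library. TRIREDRAFT_119805, TRIREDRAFT_119975 and TRIREDRAFT_123475 followed, and the first 10 places by level were completed by TRIREDRAFT_123650, TRIREDRAFT_79448, TRIREDRAFT_123327, TRIREDRAFT_123538, TRIREDRAFT_119963 and TRIREDRAFT_21412. Of these 10 genes, 2 were called, TRIREDRAFT_123475 as higher and TRIREDRAFT_21412 as lower in Δgul1. Over all genes tested, 1.87% were called higher and 2.09% lower.

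A p-value above a threshold does not show that a gene is unchanged, so small changes were described by the interval of the difference. For 33 of the 74 genes with a mean of at least 1 scaled FPKM (44.6%), the 95% interval of the log2 fold change lay wholly between -0.5 and 0.5. This was the case for 64.7% of the 8150 genes of the table at that level. All 33 were among the 64 genes with no yeast entry (51.6%). The share was below that of the table at each level: 17 of 36 genes (47.2%) at 100 scaled FPKM or more against 70.6%, 15 of 31 (48.4%) between 10 and 100 against 70.8%, and 1 of 7 (14.3%) between 1 and 10 against 37.0%. With only the genes with no entry, the shares were 54.8%, 51.7% and 25.0%. Of the 33 genes, 23 stayed inside the bounds under all 3 other scalings, and 28 stayed inside with each library left out in turn.

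Among these 33 genes, TRIREDRAFT_53947, TRIREDRAFT_22564 and TRIREDRAFT_81296 were each within 0.02 of 0 on the log2 scale, and others of like abundance, TRIREDRAFT_79448 and TRIREDRAFT_76266, had small differences that passed the test (below). TRIREDRAFT_53947, which lies from 614355 to 615023 of its scaffold in the QM6a v2.0 assembly, had 4843, 4432 and 4745 scaled FPKM in Δgul1 and 4571, 4560 and 4795 in QPP. The groups overlapped, and the means were 4673 ± 215 in Δgul1 and 4642 ± 132 in QPP (SD, n = 3 each, as for all means below). Its log2 fold change was 0.01 with an interval from -0.27 to 0.28, a difference of between -16.8% and 21.7%. On the deposited scale its log2 fold change was 0.17, close to the median of all genes on that scale. With quantile normalization the log2 fold change of TRIREDRAFT_53947 was 0.16 (limma adjusted p = 0.393), where the median of all genes was 0.001. The estimate of 0.01 therefore depends on the scaling.

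Of the 82 genes, 49 (59.8%) had every Δgul1 library on 1 side of every QPP library by scaled FPKM, against 45.0% of all genes tested. TRIREDRAFT_22564 was at 394, 423 and 408 scaled FPKM in Δgul1 and at 394, 399 and 416 in QPP. The groups overlapped, and with this scaling the interval from -0.11 to 0.15 around a log2 fold change of 0.02 limits the difference to between -7.27% and 10.8%. On the deposited scale the log2 fold change of TRIREDRAFT_22564 was 0.18 (limma adjusted p = 0.0475). TRIREDRAFT_81296 was at 212, 177 and 183 scaled FPKM in Δgul1 and at 189, 186 and 193 in QPP, where replicate 1 of Δgul1 was the highest library and replicates 2 and 3 the lowest. Its log2 fold change was 0.01 (interval -0.16 to 0.18). The role of the proteins of these genes in T. reesei is not given in the sources used here.

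Further abundant genes had a small difference whose sign was not settled after scaling. TRIREDRAFT_122870 averaged 228 ± 17.8 scaled FPKM in Δgul1 and 258 ± 25.6 in QPP (log2 fold change -0.18, interval -0.38 to 0.03). TRIREDRAFT_104401 averaged 223 ± 14.4 in Δgul1 and 243 ± 12.7 in QPP (-0.12, interval -0.28 to 0.03). TRIREDRAFT_61567 averaged 175 ± 5.92 in Δgul1 and 186 ± 12.4 in QPP (-0.09, interval -0.24 to 0.06). On the deposited scale TRIREDRAFT_104401 and TRIREDRAFT_61567 were at 0.03 and 0.07, so the sign of their differences turned with the scaling. TRIREDRAFT_124173 had 202, 212 and 211 scaled FPKM in Δgul1 and 193, 193 and 196 in QPP, and although its groups did not overlap, the interval from -0.01 to 0.21 included 0 (adjusted p = 0.145).

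**Figure D3:**
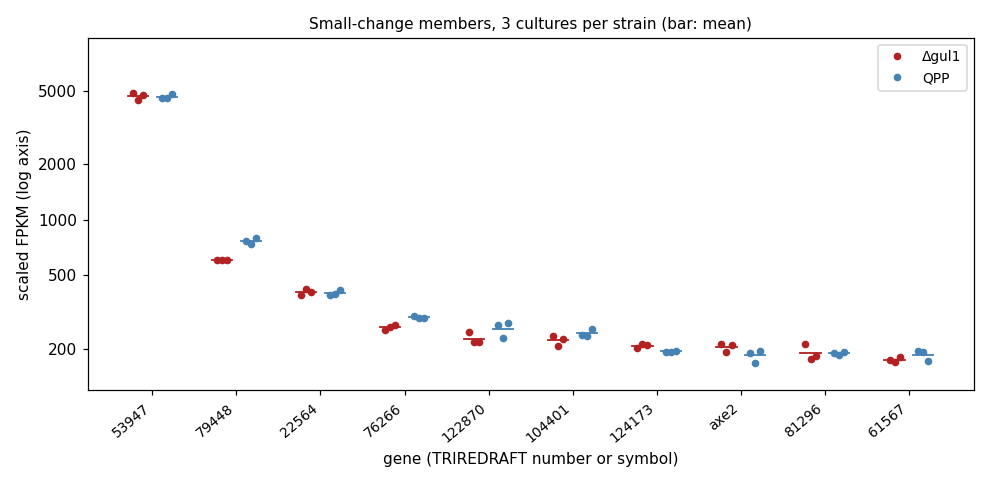
Scaled FPKM (log axis) in each of the 3 Δgul1 cultures (red, left) and the 3 QPP cultures (blue, right) for the 10 most abundant genes whose 95% interval lay between -0.5 and 0.5, with bars at the means. TRIREDRAFT_79448, TRIREDRAFT_76266 and TRIREDRAFT_124173 have groups that do not overlap, as have 45.0% of all genes tested, and the other 7 genes have groups that do.

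Small is not the same as absent: 8 of the 33 genes had an adjusted p under 0.05, 4 higher and 4 lower in Δgul1. Over all genes tested, whatever the size of the change, 14.5% were higher and 15.0% lower by this threshold. The share among all small-change genes of the table was not computed, so the count of 8 is a description only. TRIREDRAFT_79448 had 606, 608 and 607 scaled FPKM in Δgul1, below all of the 771, 738 and 801 in QPP. It fell by 0.34 on the log2 scale (interval -0.48 to -0.20, limma adjusted p = 0.00432). TRIREDRAFT_76266 had 254, 264 and 270 scaled FPKM in Δgul1, against 302, 293 and 295 in QPP, and a log2 fold change of -0.18 (adjusted p = 0.034), which was -0.02 on the deposited scale. Its adjusted p was above the threshold there and with any one library left out (0.059 to 0.0915). The other 2 lower genes were TRIREDRAFT_21982 and TRIREDRAFT_106223, and the higher ones were TRIREDRAFT_57129, TRIREDRAFT_52829, TRIREDRAFT_74947 and cel5b, all chosen for mention after their values were seen except cel5b.

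The 2 genes with a symbol encode enzymes that act on plant polysaccharides. The gene cel5b, a member of glycoside hydrolase family 5 with endoglucanases, had 45.9, 44.7 and 47.4 scaled FPKM in Δgul1, all above the 38.3, 40.4 and 36.4 in QPP. Its log2 fold change was 0.26 (interval 0.11 to 0.41, adjusted p = 0.0213), and the adjusted p was 0.0551 without QPP replicate 1, 0.0648 without QPP replicate 3 and 0.0774 without Δgul1 replicate 3. The gene axe2, annotated by its symbol as an acetyl xylan esterase, which removes acetyl groups from xylan, had 213, 193 and 209 scaled FPKM in Δgul1 and 191, 167 and 196 in QPP. The groups overlapped at a log2 fold change of 0.15 (interval -0.02 to 0.33, adjusted p = 0.166), and on the deposited scale this was 0.31 (adjusted p = 0.0106). For comparison, the major cellulase genes cel7a, cel7b and cel5a, chosen by symbol, had log2 fold changes of -1.64, -2.28 and -1.39, and xyr1, the activator of cellulase and hemicellulase genes, -0.80. Neither cel5b nor axe2 was lower in Δgul1.

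Of the 71 genes with no yeast entry, none was called, and 38 (53.5%) had an unadjusted p under 0.05 by limma, against 41.0% of all genes tested. An adjusted p under 0.05 was reached by 33 of them. Of these, 15 (21.1%) were higher, against 14.5% of all genes, and 18 (25.4%) were lower, against 15.0%. Their log2 fold changes ran from -0.89 to 0.89. Because an entry was made only for genes called from these libraries, the count of 0 follows largely from how the groups were formed. The 5 that rose most and the 5 that fell most, among those with an adjusted p under 0.05, are given next.

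Several of the most abundant genes were among those that rose. TRIREDRAFT_119805 had 1406, 1492 and 1426 scaled FPKM in Δgul1, against 788, 750 and 801 in QPP. All Δgul1 libraries were well above all QPP libraries, and the log2 fold change was 0.89 (SE 0.067, limma adjusted p = 8.9e-05). On the deposited scale it was 1.04, past the 2-fold threshold. TRIREDRAFT_123327 had 861, 828 and 823 scaled FPKM in Δgul1 and 501, 489 and 464 in QPP (0.79, SE 0.060). TRIREDRAFT_119963, outside the 5 highest but among the 10 most abundant genes, had 745, 726 and 729 in Δgul1 and 483, 453 and 465 in QPP (0.65). TRIREDRAFT_123650, also among the 10, averaged 897 ± 37.2 in Δgul1 and 646 ± 10.5 in QPP (0.47, adjusted p = 0.00117).

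The other genes with the highest changes were less abundant. TRIREDRAFT_55443 had 203, 208 and 206 scaled FPKM in Δgul1, against 117, 122 and 119 in QPP, a narrow spread in both strains (0.78, SE 0.047, adjusted p = 3.1e-05). TRIREDRAFT_123659 had 73.5, 83.5 and 75.3 in Δgul1 and 43.6, 47.8 and 38.2 in QPP (0.83, SE 0.092). TRIREDRAFT_109235 had 9.87, 7.38 and 11.0 in Δgul1 and 4.70, 3.85 and 7.05 in QPP (0.77, SE 0.208, adjusted p = 0.0281), and its groups were separated by little: the lowest Δgul1 value was just above the highest QPP value. Its adjusted p was above 0.05 without QPP replicate 1 or 2 and without Δgul1 replicate 1 or 3. TRIREDRAFT_74947, which is separated from TRIREDRAFT_55443 by 1 gene and 11579 bp, had a smaller change of 0.33. The only adjacent pair of the 82 genes, TRIREDRAFT_122455 and TRIREDRAFT_108570 with 419 bp between them, had log2 fold changes of 0.09 and 0.06. TRIREDRAFT_108570 rests on 11, 2 and 16 fragments in Δgul1 and 7, 7 and 8 in QPP. Its change was -0.04 and -0.12 with pseudocounts of 0.1 and 0.01, so the pair cannot be called alike.

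Genes that fell without reaching 2-fold were found at low and at high levels. TRIREDRAFT_124295 had 72.6, 56.4 and 59.6 scaled FPKM in Δgul1, against 109, 124 and 117 in QPP, and fell by 0.89 on the log2 scale (SE 0.099, adjusted p = 0.000559). TRIREDRAFT_121251 had 62.0, 68.6 and 57.7 in Δgul1 and 125, 116 and 103 in QPP (-0.85). TRIREDRAFT_119568 had 232, 217 and 232 in Δgul1 and 402, 392 and 376 in QPP (-0.78, adjusted p = 6.5e-05). In each of these genes every Δgul1 library was below every QPP library.

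TRIREDRAFT_105860 had 10.02, 10.3 and 10.3 scaled FPKM in Δgul1, against 18.0, 19.5 and 18.1 in QPP (-0.80). TRIREDRAFT_77942 had 27.9, 35.1 and 27.6 in Δgul1 and 52.7, 46.4 and 45.3 in QPP (-0.66). Among the 10 most abundant, a pair of genes fell by less: TRIREDRAFT_119975 averaged 968 ± 69.7 in Δgul1 and 1306 ± 52.1 in QPP (-0.43, adjusted p = 0.0057), and TRIREDRAFT_123538 averaged 556 ± 34.5 in Δgul1 and 726 ± 14.1 in QPP (-0.38, adjusted p = 0.00397). At the highest levels some genes thus rose and others fell.

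**Figure D4:**
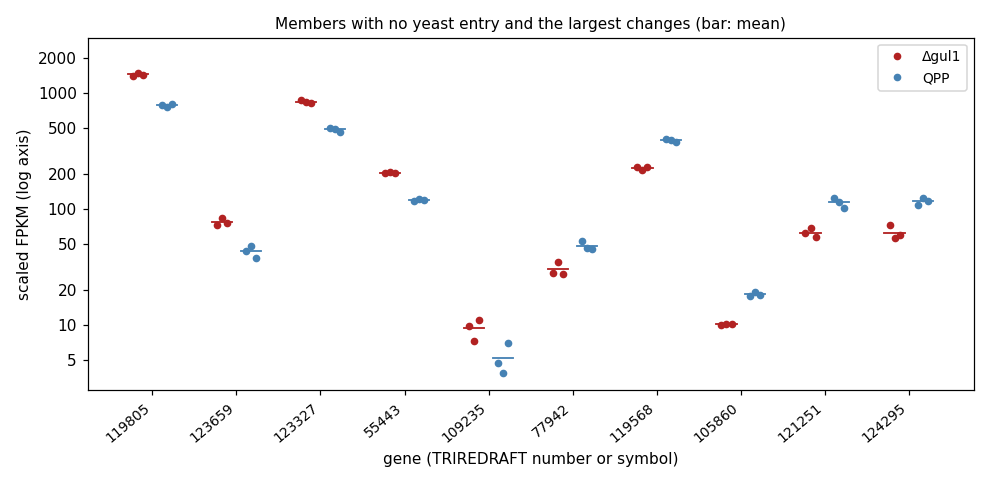
Scaled FPKM (log axis) in each Δgul1 culture (red, left) and each QPP culture (blue, right) for genes with no yeast entry and an adjusted p under 0.05, the 5 that rose most and the 5 that fell most, ordered from 0.89 to -0.89, with bars at the means. The groups do not overlap for any of the 10 genes, which were chosen for their change, and do not overlap for 45.0% of all genes tested.

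The 3 genes entered with DAN4 as the closest yeast protein were all lower in Δgul1. Entries were made only for genes the study called from these libraries. Relatives of DAN4 among the genes with no entry would therefore not be seen here. DAN4 of yeast is a mannoprotein of the cell wall that is made in the absence of oxygen. TRIREDRAFT_120189 (scaffold positions 1319625 to 1320787) had 58.3, 64.3 and 66.4 scaled FPKM in Δgul1, against 385, 345 and 405 in QPP, and fell by 2.57 on the log2 scale (SE 0.077, adjusted p = 2e-06). TRIREDRAFT_123191 (24794 to 25832) had 134, 139 and 128 in Δgul1 and 291, 304 and 281 in QPP (-1.12, SE 0.056). TRIREDRAFT_120821 (1511974 to 1513371) had 63.1, 72.9 and 60.0 in Δgul1 and 152, 151 and 127 in QPP (-1.12, SE 0.097). In all 3 genes the groups were far apart, but on the deposited scale TRIREDRAFT_123191 and TRIREDRAFT_120821 were at -0.96 and -0.97, short of the 2-fold threshold.

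The pair closest to AGA1, in yeast the subunit that anchors a-agglutinin to the wall during mating, was at very different levels. TRIREDRAFT_21412 had 213, 169 and 175 scaled FPKM in Δgul1, against 657, 663 and 882 in QPP, and fell by 1.97 on the log2 scale (SE 0.134, adjusted p = 5.7e-05). TRIREDRAFT_106998 was close to the limit of detection, with 0, 2 and 9 fragments in Δgul1 and 15, 9 and 11 in QPP. Its log2 fold change was -0.62 (adjusted p = 0.0459), and the adjusted p was above 0.05 without any one of QPP replicates 1, 2 and 3 or Δgul1 replicates 1 and 2, and also with smaller pseudocounts of 0.1 and 0.01, at which the change read -1.89 and -3.12. The size of this difference depends on the pseudocount and cannot be set against that of TRIREDRAFT_21412.

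TRIREDRAFT_123475 (242579 to 245082) is closest to FLO11, a yeast flocculin for adhesion and filamentous growth, and was the most abundant gene with an entry. It had 1017, 1102 and 1231 scaled FPKM in Δgul1, against 506, 533 and 513 in QPP, all Δgul1 libraries being higher (1.10, SE 0.082, adjusted p = 7.8e-05). TRIREDRAFT_105444 is closest to WSC2, a yeast plasma membrane sensor of cell wall stress that acts through the Rho1 and Pkc1 pathway. It was present at a low level, 2.87, 1.80 and 1.26 in Δgul1 and 6.87, 8.75 and 8.00 in QPP, and fell by 1.60 on the log2 scale (SE 0.193, adjusted p = 0.000778). These values rest on 50, 27 and 21 fragments in Δgul1 and 103, 147 and 115 in QPP. Smaller pseudocounts of 0.1 and 0.01 gave log2 fold changes of -2.01 and -2.06 for TRIREDRAFT_105444.

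The next pair of genes had the highest fold changes and a wide spread within QPP, and TRIREDRAFT_108642 also within Δgul1. TRIREDRAFT_124277, closest to SRP40, a serine-rich nucleolar protein of yeast, had 173, 196 and 139 scaled FPKM in Δgul1 and 35.2, 33.3 and 15.9 in QPP (2.61, SE 0.281, adjusted p = 0.000461). TRIREDRAFT_108642, closest to VRP1, a proline-rich yeast protein of the actin cytoskeleton, had 21.4, 36.1 and 19.0 in Δgul1 and 8.34, 7.89 and 2.35 in QPP (1.97, SE 0.407, adjusted p = 0.0094). In both genes replicate 3 was the lowest library of each strain, and the groups did not overlap. Neither SRP40 nor VRP1 is a GPI-anchored protein in yeast.

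A pair of genes with low counts complete the group. TRIREDRAFT_64181, closest to the uncharacterized yeast open reading frame YJL225C, had 0.420, 0.731 and 0.880 scaled FPKM in Δgul1 and 1.30, 1.88 and 1.44 in QPP, from 6, 9 and 12 fragments in Δgul1 and 16, 26 and 17 in QPP. Its log2 fold change was -0.60 (adjusted p = 0.0136), and pseudocounts of 0.1 and 0.01 gave -1.11 and -1.22. TRIREDRAFT_121417, for which no yeast relative was found, had 0.853, 1.08 and 0.553 in Δgul1 and 2.78, 5.17 and 1.38 in QPP (-1.07, adjusted p = 0.036), and the same pseudocounts of 0.1 and 0.01 gave -1.64 and -1.75. Its call was lost without QPP replicate 2 (-0.72), without Δgul1 replicate 3 (-0.96) and on the deposited scale (-0.98), and its adjusted p was under 0.05 with QPP replicate 3 left out and above it without any one of the other libraries (0.07 to 0.127).

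**Figure D5:**
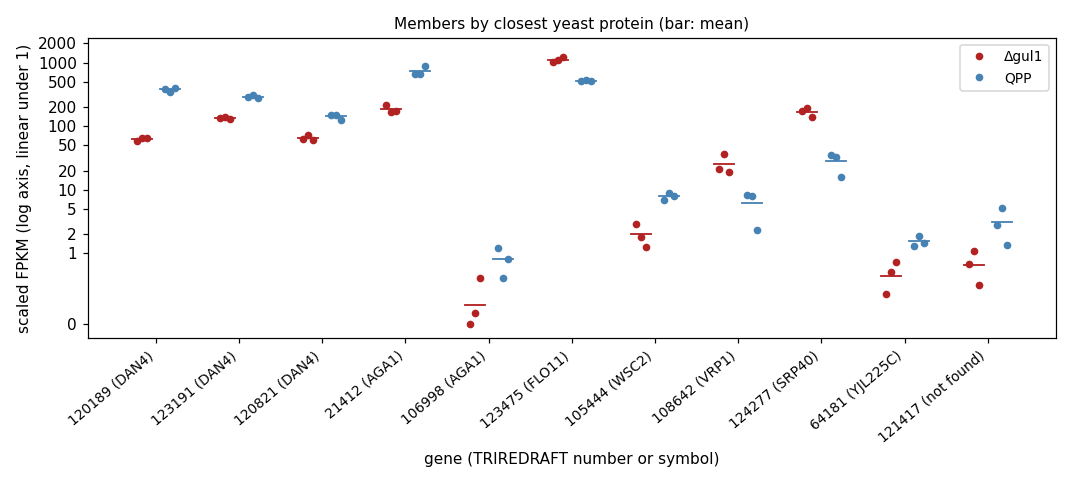
Scaled FPKM (log axis, linear under 1) in each Δgul1 culture (red, left) and each QPP culture (blue, right) for the 11 genes with a yeast entry or "not found", grouped by closest yeast protein, with bars at the means. The DAN4, WSC2 and first AGA1 genes lie lower in Δgul1, and the FLO11, VRP1 and SRP40 genes lie higher. Entries were made only for genes the study called from these libraries.

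For 6 genes above the minimum of 1 scaled FPKM, the adjusted p was not under 0.05 and the interval was not inside the bounds of a small change. In 5 of them the interval included 0. In the other, TRIREDRAFT_105984, it ran from -0.87 to -0.06 (adjusted p = 0.083), with 11.1, 8.71 and 11.6 scaled FPKM in Δgul1 below the 12.7, 13.1 and 19.3 in QPP. The widest interval was that of TRIREDRAFT_22386 (chosen for mention after its values were seen), with 387, 402 and 203 scaled FPKM in Δgul1 and 345, 387 and 120 in QPP. Replicate 3 was far below the other libraries in both strains, and the log2 fold change of 0.32 had an interval from -0.72 to 1.37. Of the 67 genes at a mean deposited level of 10 FPKM or more, 5 had libraries of a strain more than 1.5 times apart, whereas 4.54% of all genes at that level did. Besides TRIREDRAFT_22386, TRIREDRAFT_124277 and TRIREDRAFT_108642, these were TRIREDRAFT_120479 and TRIREDRAFT_105984. The labels give no shared batch for the replicate numbers, and why replicate 3 was low was not tested.

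Finally, 8 genes had a mean below 1 scaled FPKM, and no gene was at or under 3 fragments in all 6 libraries. Besides TRIREDRAFT_106998 these were TRIREDRAFT_106138, TRIREDRAFT_110058, TRIREDRAFT_108570, TRIREDRAFT_108546, TRIREDRAFT_105223, TRIREDRAFT_122506 and TRIREDRAFT_71126, of which the last was at up to 20 fragments (an upper bound) and at 0 in 1 library of each strain. At these levels the added pseudocount keeps the log2 fold change small, so the values of -0.13 to 0.11 of these 7 genes do not show that they were alike in the strains. None of the 8 genes was counted among the small changes.

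The genes that make or attach the mannose of such proteins, and those of the cell wall integrity pathway, could be followed by symbol for 7 genes, chosen after the table had been seen. Of dpm1 and mpg1, which supply activated mannose, and pmt1, a protein O-mannosyltransferase, none passed an adjusted p of 0.05, with log2 fold changes of 0.11, 0.02 and -0.13. Of the cell wall integrity genes, rho1 was at 749, 692 and 684 scaled FPKM in Δgul1 and 617, 636 and 586 in QPP, a rise of 0.21 (adjusted p = 0.0486). The protein kinase genes pkc1, mkk1 and tmk2 were at 0.06, -0.10 and -0.08 and did not pass. The gene cot1, for the kinase that acts with GUL1 in Neurospora crassa, was at -0.06 (interval -0.20 to 0.08). On the deposited scale the means of pmt1, mkk1, tmk2 and cot1 were higher in Δgul1, so the sign of these small values turned with the scaling.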

How the data were processed

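RNA-seq libraries of 3 Δgul1 and 3 QPP cultures were grouped by the strain and replicate number in their labels. Trimmed paired reads had been mapped by the authors to the QM6a v2.0 assembly with HISAT2 and counted with HTSeq; tool settings and the use of strand in counting are not given in the sources used here, so overlapping genes and near-identical copies are uncertain. The deposited values are FPKM, scaled by gene length and library total but not between libraries.

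Size factors by the median-of-ratios method were applied to the FPKM, and log2(scaled FPKM + 1) was fitted for all 9006 genes above 0 with limma 3.58.1 in R 4.3.3 (eBayes with a trend, strain as the only term), with Benjamini-Hochberg adjustment over all genes. The pseudocount of 1 understates changes of low genes. The test was checked on normal values simulated from the fitted mean and spread of 8150 genes with a mean of at least 1 scaled FPKM. Of simulated 1.5-fold changes, 74.5% reached a limma adjusted p under 0.05. Such values meet the assumptions of the test, so the check does not cover counting error or lower genes. Fragments recovered from the FPKM were whole to within 1.2e-05 for all 82 genes, with 1 possible length for 81. They were used for depth only, and no count test was run on them. Python 3.11.15, numpy 2.4.6, pandas 2.3.3 and matplotlib 3.10.9 were used. P-values set the difference between the strains against the spread between cultures of 1 experiment. For each gene, eBayes moves that spread toward a trend over all genes.

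Named genes are those with a yeast entry, the 10 at the highest level, the 10 most abundant with a small-change interval, those with a symbol, the 5 highest and 5 lowest changes with no entry, and, had there been any, those at 3 fragments or fewer in every library. The gene list, groups and rules were chosen with earlier results of these data known. Lists by product name for anchor synthesis and for spores matched no gene, since the tables used here hold no product names, and cbh2 is not analysed here. Protein features and similarity among the genes were not analysed here. Columns of fold change and p in the table of predicted proteins were not used.

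The results were recomputed with unscaled FPKM, with quantile normalization or upper quartile scaling, with a smaller pseudocount (0.1 or 0.01), with genes under a mean of 1 FPKM left out, without the trend in eBayes, and with a fold threshold of 0.5 on the log2 scale, other bounds of small change, a replicate block, and each library left out in turn. Minimum means of 0 and 10 FPKM for the small-change count were added after seeing the data.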

Additional observations from a re-analysis of the deposited data

How the results depend on the processing

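The lower calls went from 6 to 3 with FPKM as deposited and to 8 with either smaller pseudocount, and the higher calls stayed between 3 and 4. A fold threshold of 0.5 on the log2 scale gave 11 higher and 14 lower calls. Small-change bounds of 0.3 gave 13 genes and bounds of 1 gave 58, and, as alternatives chosen after seeing the data, no minimum level gave 38 and a minimum of 10 FPKM gave 32. The median log2 fold change of the 82 genes, 0.008, was 0.122 with FPKM as deposited, -0.008 with a minimum mean of 1 FPKM, -0.003 with quantile normalization and -0.012 with upper quartile scaling.

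With each library left out in turn, the median ran from -0.042 to 0.022, the lower calls from 5 to 6, the small-change count from 29 to 34, and the genes with an adjusted p under 0.05 from 14 to 16 higher and from 20 to 24 lower. Of 503 values of single named genes under these alternatives, 457 kept their direction and their side of the adjusted p threshold of 0.05, and 31 were no longer under it. With FPKM as deposited, 3 came under it: TRIREDRAFT_124173 (0.261), TRIREDRAFT_22564 (0.178) and axe2 (0.311). The sign turned in 12 values, all of genes that were not past the threshold before or after. With FPKM as deposited these were TRIREDRAFT_104401 (0.034) and TRIREDRAFT_61567 (0.066), and with upper quartile scaling TRIREDRAFT_22564 (-0.001), TRIREDRAFT_53947 (-0.011) and TRIREDRAFT_81296 (-0.012). With a library left out, TRIREDRAFT_22564 ran from -0.006 to 0.044, TRIREDRAFT_53947 from -0.017 to 0.047 and TRIREDRAFT_81296 from -0.072 to 0.059. Same-numbered libraries deviated with correlations of -0.09, 0.184 and 0.367, and libraries of unlike number with correlations from -0.441 to 0.33. These values do not settle whether the numbers pair the cultures, and the main fit did not pair them. A fit with the replicate number as a block gave 3 higher and 6 lower calls and 31 small-change genes. The genes below 1 FPKM rest on low fragment counts, and the part of counting error in their spread was not tested.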
